A study of Mus musculus with 18 samples.

Results

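RNA from subcutaneous tumours grown in mice from wild-type TC1 cells was compared with RNA from wild-type TC1 cells in culture, 3 libraries against 3 of the 18 in the series. The members were taken by label: the wild-type columns of the tumour table and the wild-type columns of the TC1 cell table, summed per gene, joined and normalised together. For the tumours, cells in saline were injected under the skin and the tissue was taken on day 8, per the labels' protocols. Both groups are labelled wild type, and the series holds in addition sgNAT10 TC1 tumours and sgNAT10 TC1 cells, in which Nat10 was targeted, and wild-type and sgNAT10 MCA205 cells. The labels used here give no strain, sex or age of the hosts, and do not say whether a tumour library is 1 animal or whether a cell library is a separate culture. The p-values given here speak only of how far these libraries vary, and that variation could be purely technical. The tumours and the cultured cells were deposited in separate tables, so tumour against culture and table against table cannot be told apart.

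A tumour under the skin is a mixture of the implanted cells with host macrophages, lymphocytes, blood vessels and fibroblasts, all of which are missing from a dish. Interferons released by leukocytes act on neighbouring cells and switch on antiviral genes and antigen presentation. Limited oxygen stabilises HIF factors, which induce genes of angiogenesis, pH control and glycolysis, while serum, glucose and amino acids are abundant in culture medium. TC1 is generally described as a mouse lung line transformed with papillomavirus oncogenes and an activated Ras gene, and MCA205 as a chemically induced mouse fibrosarcoma; the labels call both fibrosarcoma. Of the markers of lung epithelium, Nkx2-1, Sftpc, Sftpb, Sftpa1 and Scgb1a1 were at or near 0 in tumours and TC1 cells and too low to be tested. The whole list of 19 epithelial and lung genes summed to 5.24, 63.7 and 60 FPKM in tumours and to 150, 201 and 48.2 FPKM in TC1 cells. Of 14 tested, none was called higher in tumours and 1 was called lower, against 23.8% and 20.8% of all genes tested.

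The libraries held between 51661298 and 78501790 estimated counts, with the deepest being wild-type tumour 1. Transcripts annotated as retained introns took 4.0 to 4.43% of the counts in tumours and 3.59 to 3.71% in TC1 cells, and mitochondrially encoded genes 2.89 to 3.28% and 2.92 to 3.29%. Of 19206 genes tested with edgeR's quasi-likelihood test, 4566 (23.8%) were higher and 3990 (20.8%) lower in tumours at an adjusted p under 0.05, and 2628 (13.7%) and 2288 (11.9%) also changed at least 2-fold. These percentages are the background for every count of list members below. The median log2 change over all genes was 0.04. With library size alone as the scaling the median stood at -0.14, and 41.1% of the calls were higher ones, against 53.4% with TMM factors. The tumour and TC1 cell libraries did not overlap in FPKM for 60.4% of the genes tested.

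The tumour libraries went against their label in genes that tell the 2 lines apart in culture. From the cell libraries alone, after the data had been seen, genes were taken that stood at 5 FPKM or more in every library of 1 line, at least 5 times the highest library of the other line, and within 1.3 times of each other inside a genotype. The 33 such genes higher in TC1 cells stood in wild-type tumours at a median of 4.17% of their level in TC1 cells. Of them 21 were under 10% of that level, and 25 were nearer to the level of MCA205 cells. The 31 genes higher in MCA205 cells stood in the tumours at a median of 77.4% of their MCA205 level, and 27 were nearer to MCA205 cells. Whether the tumours hold other cells than their label states was not tested.

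Single genes show the same. Rbm46, a germ-cell RNA-binding protein gene, was listed at 0 FPKM in all 3 tumours, against 24.0, 24.7 and 27.4 FPKM in TC1 cells and 0 in the 3 MCA205 libraries. Dlk1, which encodes a secreted and membrane-bound regulator of differentiation, had 0.985, 0.838 and 1.13 FPKM in tumours, against 258, 327 and 318 FPKM in TC1 cells and 0 in MCA205 cells. Grb10, an adaptor of growth factor receptors, had 1.80, 1.44 and 1.42 FPKM in tumours and 59.2, 66.5 and 69.4 FPKM in TC1 cells. In the other direction stood homeobox genes, which mark position along the body. Hoxc10 had 25.7, 20.9 and 22.9 FPKM in tumours, 1.92, 0 and 0.0448 FPKM in TC1 cells, and 22.8, 22.6 and 25.1 FPKM in MCA205 cells. Hoxa11 (9.20, 8.16 and 10.5 FPKM in tumours) and Pitx1, a hindlimb factor gene (11.2, 9.31 and 8.61 FPKM), also stood near their MCA205 levels of 12.1 to 13.9 and 12.5 to 13 FPKM. Xist, the RNA that silences an X chromosome, had 17.9, 23.1 and 25 FPKM in tumours, 2.23, 0.0886 and 0.00448 FPKM in TC1 cells and 18.8, 17.9 and 17.0 FPKM in MCA205 cells. Its difference between tumours and the widely spread TC1 cells did not pass the test (log2 change 4.91, SE 1.68, adjusted p = 0.0521). The Y-linked Ddx3y was at 0.0558 to 0.112 FPKM in tumours and 0.293 to 0.820 FPKM in TC1 cells. In sgNAT10 tumours the 33 genes stood at a median of 4.65% of their level in sgNAT10 TC1 cells, and the 31 genes at a median of 73.3% of their level in sgNAT10 MCA205 cells. Of the 33 genes 24 and of the 31 genes 27 were nearer to MCA205 cells. Xist had 4.27, 5.84 and 5.26 FPKM in sgNAT10 tumours, below the wild-type tumours and the MCA205 cells.

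**Figure D1:**
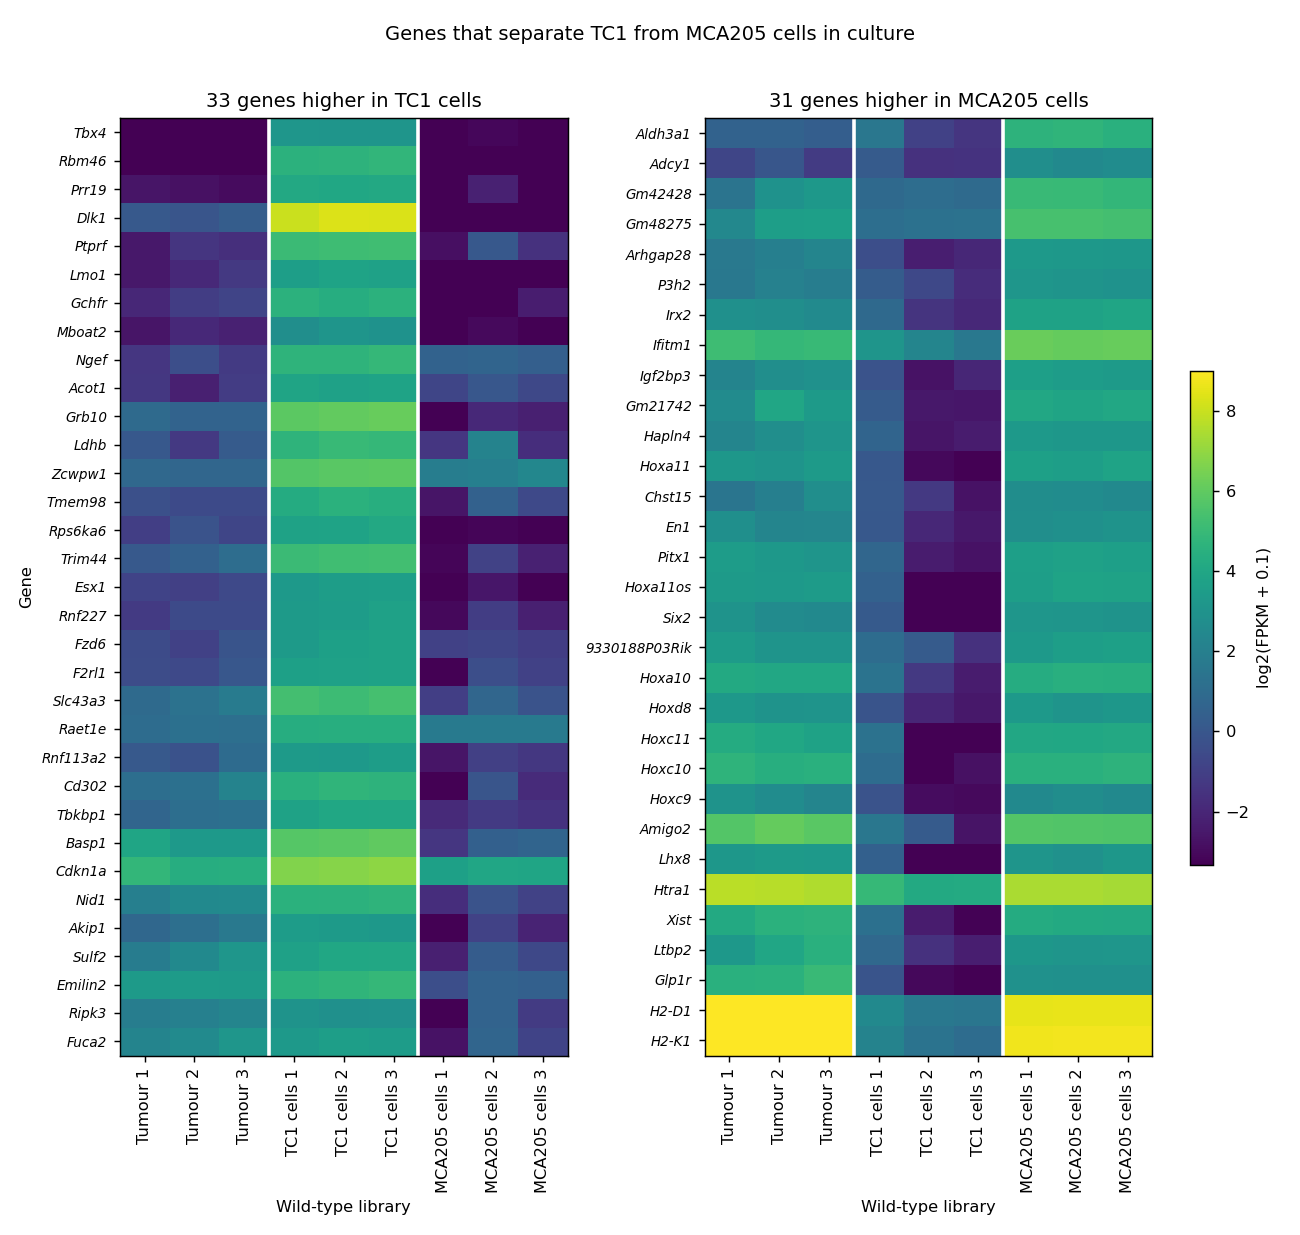
Heat map of log2(FPKM + 0.1) for the 33 genes higher in TC1 cells (left) and the 31 genes higher in MCA205 cells (right), with 1 row a gene and 1 column a wild-type library; the colour scale ends at 9, so higher values share its last colour. In tumours the left set stood at a median of 4.17% of its TC1 level and the right set at a median of 77.4% of its MCA205 level.

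One TC1 cell library also carried the second set. In TC1 cells 1 the MCA205 genes stood at a median of 12.2% of their MCA205 level, against 1.13% in TC1 cells 2 and 0.801% in TC1 cells 3. H2-K1 and H2-D1, which belong to this set, did not follow, at 1.03% and 1.47% of their MCA205 level in TC1 cells 1. Rps21, which is not in the set, stood at 0.22% of its MCA205 level there. Since the tumours go against their label in these genes, values of wild-type MCA205 cells are given beside the main comparison. That second comparison uses the same tumour libraries, so the 2 are not independent. Of 18669 genes tested against MCA205 cells, 3604 (19.3%) were higher and 2891 (15.5%) lower in tumours, 2037 (10.9%) and 903 (4.84%) of them at least 2-fold, and for 53.2% the tumour and MCA205 libraries did not overlap in FPKM. FPKM values of different tables were scaled by the authors library by library, and levels are set side by side across tables here, while log2 changes come from counts normalised together.

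The cultured TC1 libraries held transcripts of genes typical of other organs. Summed FPKM of 12 liver genes were 29.3, 84.7 and 292 in tumours, against 1360, 1450 and 810 in TC1 cells, and 12 intestinal genes summed to 15.2, 46.9 and 51.2 against 430, 595 and 187. Lists of 8 kidney and 8 heart genes were added after the data were seen. Kidney genes summed to 0.153 to 0.230 in tumours and to 140, 162 and 10.8 in TC1 cells. Heart genes summed to 10.9 to 24.5 in tumours and to 227, 216 and 205 in TC1 cells. This heart sum did not share the drop of the other lists in TC1 cells 3. The heart muscle gene Myh6 did, at 7.90, 10.9 and 2.25 FPKM in TC1 cells. In sgNAT10 TC1 cells the heart genes summed to 450, 230 and 53.1. Whether the line itself expresses heart genes was not tested. Every TC1 cell library lay above every wild-type tumour for each of the 4 lists. MCA205 cells summed to 2.9, 92.3 and 52.7 for liver and to 5.03, 283 and 88.5 for intestine, so 2 of those 3 libraries lay above the wild-type tumours for intestine. For kidney MCA205 cells summed to 0.54, 0.226 and 0.369, and for heart to 7.34, 57.9 and 8.63. The sgNAT10 tumours summed to 672, 730 and 685 for liver. Alb, the plasma albumin gene, had 0, 19.6 and 93.2 FPKM in tumours and 401, 391 and 277 FPKM in TC1 cells, a difference that did not pass the test (log2 change -3.22, SE 1.73, adjusted p = 0.172). Of the 12 liver genes 4 were called lower and of the 12 intestinal genes 8. The liver count was 2 without TC1 cells 1, 2 without TC1 cells 2, 9, 1 and 7 without tumours 1, 2 and 3. The antibody genes Igkc and Jchain moved with the liver and intestinal lists, at 2.09, 23 and 23.1 FPKM for Igkc in tumours against 201, 269 and 75.1 FPKM in TC1 cells.

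**Figure D2:**
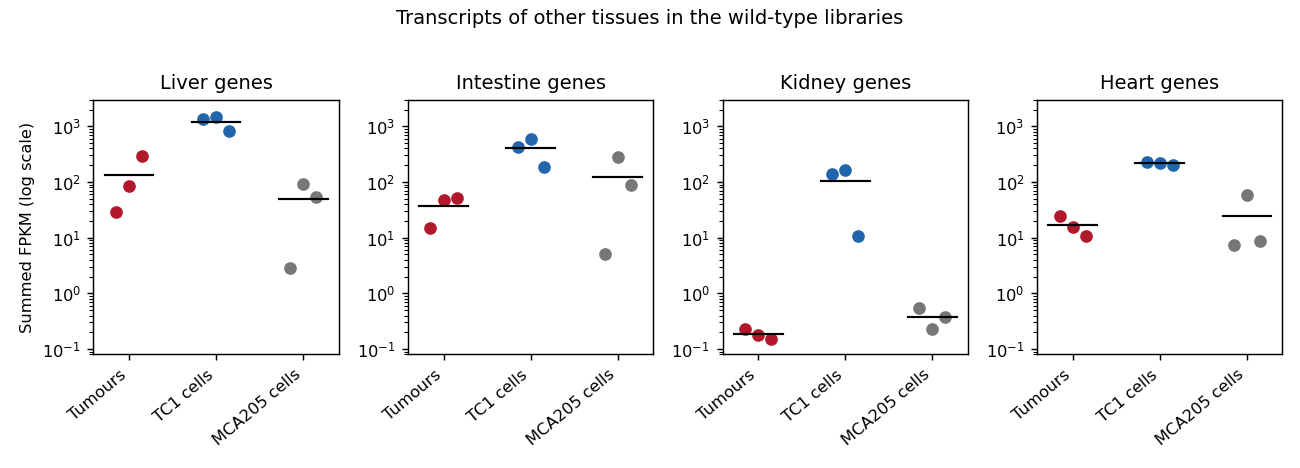
Summed FPKM on a log axis of genes typical of liver, intestine, kidney and heart in each wild-type library, with 1 point a library and a bar at the mean of 3. The 3 TC1 cell libraries lie above the 3 tumours in every panel, from 810 to 1450 against 29.3 to 292 for liver.

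The largest changes were ranked among called genes with a higher mean of at least 20 CPM and no overlap of the groups in FPKM. Unnamed gene models and pseudogenes were left out. In this set the 10 largest falls held 5 genes of other organs, 2 of the 33 genes higher in TC1 cells and 3 others. Kap, a kidney androgen-regulated protein gene, was listed at 0 FPKM in every tumour, against 132, 151 and 9.21 FPKM in TC1 cells, at least 1770-fold lower when a floor of 3 counts a library is set in the tumours. Defa22, a defensin gene of the small intestine, was at least 531-fold lower by the same floor, and the fatty acid-binding gene Fabp2, the antimicrobial lectin gene Reg3b and the cardiac myosin gene Myh6 also stood among them. Rbm46 (at least 1280-fold lower) and the limb factor gene Tbx4 (at least 655-fold) were among the 33 genes. Tex13b (at least 553-fold lower), the meiotic cohesin gene Stag3 and the helicase gene Ddx25 were not. Tex13b had 8.27, 13.4 and 14.4 FPKM in wild-type TC1 cells but 0.0408 to 0.137 FPKM in sgNAT10 TC1 cells. Stag3 had 0, 0 and 0.107 FPKM in tumours, against 62.8, 67.5 and 71.9 FPKM in TC1 cells and 0 in MCA205 cells.

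In the same set of named genes, the 10 largest rises were genes of leukocytes and of antigen presentation, with 1 ribosomal protein gene. Gzmc, a granzyme of cytotoxic lymphocytes, had 11, 10.2 and 48.9 FPKM in tumours and 0 in all TC1 and MCA205 cells, at least 419-fold higher. The lactoferrin gene Ltf was at least 361-fold higher, at 7.65, 5.45 and 6.58 FPKM in tumours and 0 in TC1 cells, but 1 MCA205 library held 3.65 FPKM and that comparison did not pass the test. Sirpb1c, Fcrls, Ms4a4c, Ms4a4a and the chemokine gene Ccl12, all known from myeloid cells, rose by log2 changes of 7.73 to 10.79. Of these 10, the classical MHC class I genes H2-K1 and H2-D1 showed the largest absolute levels. They belonged to the 31 genes higher in MCA205 cells, and their log2 changes over MCA205 cells were 2.4 and 2.26. H2-K1 stood at 1960, 1710 and 2740 FPKM in tumours, against 4.48, 2.47 and 1.98 FPKM in TC1 cells and 428, 434 and 444 FPKM in MCA205 cells (log2 change 9.89 over TC1 cells, SE 0.31, adjusted p = 7.59e-05). H2-D1 had 1730, 1540 and 2180 FPKM in tumours, 5.65, 2.96 and 2.80 FPKM in TC1 cells and 377 to 387 FPKM in MCA205 cells. Rps21, a gene of the small ribosomal subunit, had 1030, 348 and 346 FPKM in tumours and 0.971, 1.10 and 0.993 FPKM in TC1 cells, while MCA205 cells had 385 to 483 FPKM. A gene with near-identical relatives, as MHC class I genes and ribosomal protein genes are, rests on how the authors assigned reads.

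Macrophage and monocyte genes rose most uniformly. All 24 members tested were higher in tumours, with a median log2 change of 5.55, and the count was 23 or 24 with any 1 library left out. Against MCA205 cells 23 of 24 were higher, with a median of 6.64. Itgam, a subunit of the complement receptor of myeloid cells, had 22.4, 24.8 and 27.1 FPKM in tumours, 0.196, 0.274 and 0.158 FPKM in TC1 cells and 0 to 0.201 FPKM in MCA205 cells (log2 change 7.26, SE 0.19, adjusted p = 7.59e-05). Lyz2, the lysozyme gene of phagocytes, had 511, 571 and 554 FPKM in tumours and 24.0, 27.6 and 32.6 FPKM in TC1 cells. The Fc receptor genes Fcgr1 and Fcer1g rose with log2 changes of 6.40 and 6.09, and Adgre1, which encodes the F4/80 antigen, had 13.7, 15.8 and 28.7 FPKM in tumours and 0.202 to 0.737 FPKM in TC1 cells. Ptprc, the pan-leukocyte CD45 gene, was highest in tumour 3, at 24.1 FPKM beside 7.81 and 11.5 FPKM, with 0.541 to 0.713 FPKM in TC1 cells. In bulk RNA, fewer cells of a type and less RNA per cell cannot be told apart, so these values are not shares of cells.

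Other leukocyte lists stood at lower levels in tumours, and not all of them rose in summed FPKM. Of 11 neutrophil genes 8 could be tested and 7 were higher, or 4 without TC1 cells 2 or TC1 cells 3. Csf3r, the receptor gene for granulocyte growth factor, had 3.77, 2.00 and 4.58 FPKM in tumours and 0.0287 to 0.159 FPKM in TC1 cells, and Ly6g was at least 23.7-fold higher, while its difference from MCA205 cells did not pass the test (log2 change 0.01, adjusted p = 0.988). Of 13 NK and cytotoxic genes 11 were higher, with a median log2 change of 5.38. Their summed FPKM overlapped, at 71.3, 70.2 and 184 in tumours and 127, 28 and 39 in TC1 cells. The perforin gene Prf1 had 1.81, 1.63 and 5.21 FPKM in tumours and 0.0249 to 0.114 FPKM in TC1 cells, and the NK receptor gene Klrb1c and the death ligand gene Fasl, at 0 in every cell library, were at least 46.1-fold and 22.1-fold higher. Ifng, the type II interferon, had 2.15, 2.31 and 3.23 FPKM in tumours and 0 to 0.0587 FPKM in TC1 cells (log2 change 6.09, SE 0.81, adjusted p = 0.002).

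T cell genes were low in level but higher in tumours in 12 of 18 cases, and none was lower. Cd3g, part of the T cell receptor complex, had 2.41, 1.3 and 4.89 FPKM in tumours, 0.39, 0.4 and 0.0984 FPKM in TC1 cells, and 0, 0.466 and 0 FPKM in MCA205 cells. The adhesion receptor gene Cd2, the costimulatory receptor gene Icos and the regulatory factor gene Foxp3 had log2 changes of 5.27, 4.25 and 2.40, the Foxp3 call being lost without TC1 cells 2. Cd8a reached 0.795, 0.973 and 2.19 FPKM in tumours, and its call was lost without TC1 cells 1 or tumour 3. Tumour 3 held the highest level of each of these genes. The T cell count fell to 6 without TC1 cells 2 and to 7 without tumour 3.

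Dendritic cell genes were higher in 6 of 8 tested and lower in 1. Summed FPKM of the list overlapped, at 9.4, 9.9 and 17 in tumours and 9.6, 9.2 and 12 in TC1 cells. The chemokine gene Ccl22, at 1.18, 0.762 and 1.34 FPKM in tumours and 0 in TC1 cells, was at least 49.1-fold higher. Zbtb46, a dendritic cell and endothelial factor gene, had a log2 change of 0.67, and tumours and MCA205 cells stood at 2.74 to 3.57 and 3.77 to 4.47 FPKM. Batf3, which is required for cross-presenting dendritic cells, went the other way, at 0.986, 0.223 and 0.730 FPKM in tumours against 6.79, 6.58 and 9.21 FPKM in TC1 cells and 0 to 0.583 FPKM in MCA205 cells. B and plasma cell genes had no member higher and 3 of 10 lower. The 3 lower ones, Igkc, Jchain and Mzb1, belong to antibody-secreting cells. The count was 1 without TC1 cells 2, and without TC1 cells 1 another member was called higher.

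Blood vessel genes rose in 18 of 20 cases, none was lower, and the count was 17 with any 1 library left out. Pecam1, the junction protein CD31 of endothelium, had 15.0, 13.2 and 16.5 FPKM in tumours, 1.25, 0.939 and 0.414 FPKM in TC1 cells and 0.114 to 1.04 FPKM in MCA205 cells (log2 change 4.31, SE 0.38, adjusted p = 0.000515). Emcn and the endothelial transcription factor gene Sox18 rose with log2 changes of 4.66 and 4.03, and Cdh5, the vascular cadherin gene, with 3.17. Pericyte genes were mixed, with 7 of 13 higher and 3 lower. Mcam had 16.4, 21.0 and 21.3 FPKM in tumours and 2.10 to 3.45 FPKM in TC1 cells, and Higd1b was listed at 0 in all TC1 cells and at 0.602 to 0.882 FPKM in tumours. Des and Notch3 were lower, at log2 changes of -1.29 and -0.78, and the count of lower members was 1 without TC1 cells 1 or TC1 cells 2. Pdgfrb, at 7.91, 12.1 and 19.6 FPKM in tumours against 5, 2.97 and 2.80 FPKM in TC1 cells, did not pass the test against MCA205 cells, which had 9.58 to 10.3 FPKM. Of 10 genes of red cells and platelets 5 were higher, or 2 without TC1 cells 2, and 2 were lower. The lower ones were the platelet integrin gene Itga2b and the red cell anion exchanger gene Slc4a1, with log2 changes of -1.61 and -2.77. The haemoglobin gene Hbb-bs had 166, 131 and 64.6 FPKM in tumours and 3.78 to 22.9 FPKM in TC1 cells, and the platelet factor gene Pf4 had 123, 38.6 and 21.7 FPKM and 0.106 to 3.10 FPKM.

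Fibroblast genes were higher in 11 of 18 cases and lower in 1, or in none in 4 of the 6 fits without a library. Postn, a matrix protein of activated fibroblasts, had 33.4, 37.1 and 66.9 FPKM in tumours, 0.996, 1.10 and 0.500 FPKM in TC1 cells and 0.125 to 1.65 FPKM in MCA205 cells (log2 change 5.94, SE 0.49, adjusted p = 0.000416). The collagen genes Col1a1 and Col3a1 rose with log2 changes of 4.36 and 3.72, and Pi16, a gene of resting fascial fibroblasts, with 2.83. Tumour 3 again stood highest for Col3a1, at 610 FPKM beside 168 and 236 FPKM. Genes of surrounding tissue went in both directions. Of 16 skeletal muscle genes 8 were higher and 2 lower than in TC1 cells, whereas 1 was higher than in MCA205 cells, with a median log2 change of 0.12. The 16 genes summed to 46.8, 34.7 and 43.2 FPKM in tumours and to 1.83, 150.8 and 4.6 FPKM in MCA205 cells. Only MCA205 cells 2 lay above the tumours. No fit against MCA205 cells left out a library, so whether the few calls rest on it was not tested. The fast-fibre troponin gene Tnni2 had 6.76, 6.56 and 11.5 FPKM in tumours and 0.251 to 0.474 FPKM in TC1 cells, and did not pass the test against MCA205 cells, of which 1 library held 8.73 FPKM. By contrast myoglobin, Mb, which heart expresses too, had 0.506 to 0.765 and 2.74 to 4.37 FPKM. The count of higher muscle genes was 4 without TC1 cells 2 and 5 without tumour 1. Adipocyte genes were higher in 3 of 9 cases and lower in 4 than in TC1 cells, and none of 7 was called against MCA205 cells, with Fabp4 at 38.3, 20.3 and 24.2 FPKM in tumours against 4.36 to 7.24 FPKM in TC1 cells, and Car3 at 0.748 to 1.31 FPKM against 10 to 39.5 FPKM.

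**Figure D3:**
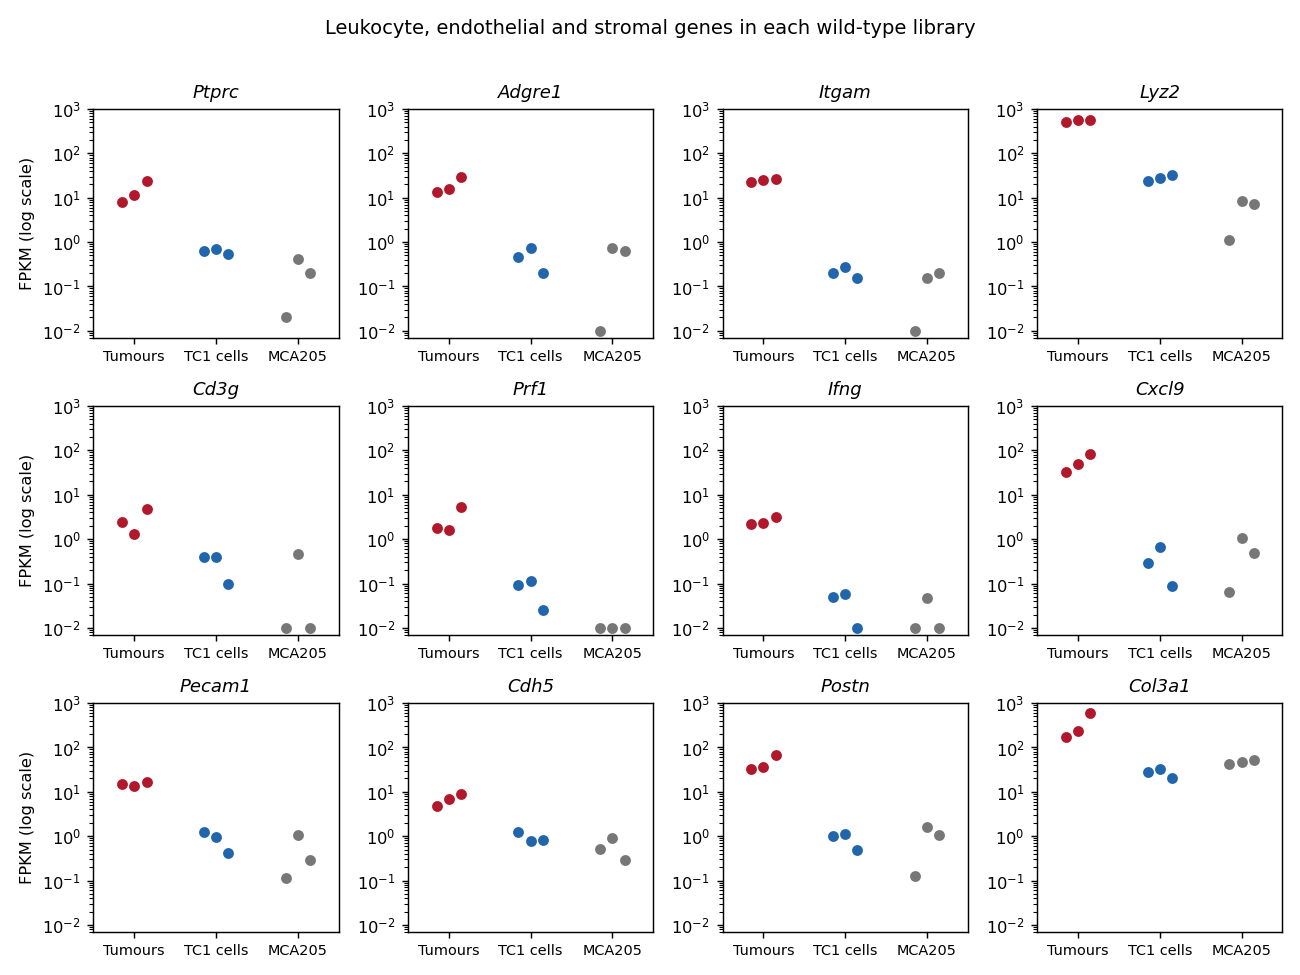
FPKM on a log axis of 12 leukocyte, interferon, endothelial and stromal genes in each wild-type library, with 1 point a library and values under 0.01 drawn at 0.01. All 3 tumours lie above all TC1 and MCA205 cell libraries in every panel, as for Itgam at 22.4 to 27.1 FPKM in tumours and at most 0.274 FPKM in TC1 cells.

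Interferon-stimulated genes rose as a group. Of 34 type I interferon-stimulated genes 30 were higher in tumours and none lower, with a median log2 change of 2.92, and between 26 and 34 were higher with 1 library left out. Against MCA205 cells 33 were higher, with a median of 2.81. Parp9, an ADP-ribosyltransferase family gene, had 27.2, 42.1 and 52.0 FPKM in tumours, 5.32, 3.92 and 2.98 FPKM in TC1 cells and 6.78 to 7.59 FPKM in MCA205 cells. The nucleotide kinase gene Cmpk2 rose with a log2 change of 4.22, the ubiquitin ligase family gene Herc6 with 2.69 and Ifit2, which binds viral RNA, with 2.08. Ifit3, of the same family, had 99.9, 121 and 195 FPKM in tumours, 12.3, 3.51 and 3.55 FPKM in TC1 cells and 5.36 to 6.86 FPKM in MCA205 cells. Isg15, a ubiquitin-like modifier gene, had 174, 138 and 229 FPKM in tumours, 59.1, 11.4 and 14.1 FPKM in TC1 cells and 29.8 to 35.6 FPKM in MCA205 cells (log2 change over TC1 cells 2.80, SE 0.66, adjusted p = 0.0148). TC1 cells 1 was the highest of the 3 cell libraries for both, and without it all 34 members were higher in tumours.

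The promoters of Isg15 and Ifit3 are shown because these genes moved together and their promoters hold the interferon-stimulated response element, searched on both strands as GAAA, any 2 bases, then GAAA, with overlapping matches counted. They are the 250 bases before the RefSeq start in GRCm38.p6, 5′ to 3′ on the gene's strand, with the matches in capitals; in Isg15 the 3 matches overlap.
Isg15 promoter, chr4:156200819-156201068, minus strand: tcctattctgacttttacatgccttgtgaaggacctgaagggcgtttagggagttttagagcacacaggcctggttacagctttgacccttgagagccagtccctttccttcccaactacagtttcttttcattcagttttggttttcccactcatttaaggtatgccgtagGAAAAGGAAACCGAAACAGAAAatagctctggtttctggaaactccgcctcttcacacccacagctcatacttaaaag
Ifit3 promoter, chr19:34583279-34583528, plus strand: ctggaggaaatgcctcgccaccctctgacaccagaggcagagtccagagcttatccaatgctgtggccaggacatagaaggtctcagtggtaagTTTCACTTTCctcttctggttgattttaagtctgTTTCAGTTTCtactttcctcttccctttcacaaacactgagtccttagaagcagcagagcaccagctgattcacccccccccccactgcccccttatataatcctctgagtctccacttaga
Of the 34 listed genes 23 had an entry in the promoter table, and 14 of these (60.9%) held the letters within 250 bases before to 50 after a start, against 3.99% of 27025 genes in the table. Ifit2 and Cmpk2 rose as well, and no match was found in their entries. A match of letters is a description and not a binding site.

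Genes that respond mainly to interferon gamma rose further. Of 22 tested 18 were higher and none lower, with a median log2 change of 4.79, and against MCA205 cells 20 were higher with a median of 5.16. Cxcl9, a chemokine that attracts T cells, had 32.6, 50.6 and 82.1 FPKM in tumours and 0.0870 to 0.678 FPKM in TC1 cells (log2 change 7.43, SE 0.72, adjusted p = 0.000707). Irgm1, an immunity-related GTPase, had 107, 170 and 231 FPKM in tumours, 11.7, 6.71 and 6.03 FPKM in TC1 cells and 10.7 to 12.9 FPKM in MCA205 cells. The transcription factor gene Irf1 rose with a log2 change of 3.42 and Cd274, which encodes the checkpoint ligand PD-L1, with 3.88, at 10.3, 15.1 and 16.4 FPKM in tumours against 0.873 to 1.22 FPKM in TC1 cells. Tumour 3 was highest and tumour 1 lowest for these 4 genes.

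Receptors of interferons changed less than their targets. All 6 tested members of the interferon and receptor list were higher, with Ifngr1 at 21.7, 29.5 and 43.6 FPKM in tumours and 12.2 to 14.1 FPKM in TC1 cells (log2 change 1.37, SE 0.19), Ifnar2 with a log2 change of 0.87 and Ifnar1 with 0.55. The Ifnar1 call was lost with library size alone and in every limma-trend fit on FPKM. The count of higher members was 4 without TC1 cells 2, TC1 cells 3 or tumour 3, and 5 without TC1 cells 1 or tumour 2.

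Antigen presentation genes were higher for both classes. Of 17 MHC class I genes 14 were higher and none lower, with a median log2 change of 2.54. Beside H2-K1 and H2-D1, the nonclassical H2-Q4 had 107, 105 and 178 FPKM in tumours and 12.2 to 12.8 FPKM in TC1 cells, and the immunoproteasome subunit gene Psmb10 had 106, 116 and 159 FPKM and 13.4 to 17.6 FPKM. B2m, the invariant light chain, stood at 3120, 3100 and 4080 FPKM in tumours and already at 2100, 1710 and 1810 FPKM in TC1 cells, in contrast to the heavy chain genes. Of 10 class II genes 8 were higher. H2-Ab1 had 76.3, 52.7 and 131 FPKM in tumours, 11.4, 13.8 and 3.44 FPKM in TC1 cells and 0.267 to 3.98 FPKM in MCA205 cells, and the protease gene Ctss, which trims the invariant chain, rose with a log2 change of 5.97.

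Chemokine genes were higher in 16 of 22 cases. Cxcl16 and Cx3cl1, which are made as membrane-bound ligands, rose with log2 changes of 4.91 and 3.94, and Ccl9 with 5.42. Cx3cl1 had 22.4, 38.5 and 60.3 FPKM in tumours, 1.96 to 3.75 FPKM in TC1 cells and 19.7 to 21.8 FPKM in MCA205 cells, so its difference from MCA205 cells was smaller (log2 change 1.02, adjusted p = 0.027). Ccl20 was called lower at the threshold (log2 change -4.42, adjusted p = 0.0499) and lost its call with upper-quartile factors, library size alone and DESeq2, and in 5 of the 6 fits that left out a library. Of 17 inflammatory cytokine genes 7 were higher and 3 lower. Il1rn, the receptor antagonist of interleukin-1, had 14.8, 13.4 and 13.5 FPKM in tumours and 0.514 to 0.713 FPKM in TC1 cells, and oncostatin M, Osm, rose with a log2 change of 7.67. Csf1, the macrophage growth factor gene, was lower, at 49.2, 66.8 and 65.1 FPKM in tumours against 140, 107 and 120 FPKM in TC1 cells and 98.3 to 104 FPKM in MCA205 cells. Lif and the alarmin gene Il33 were also lower, at log2 changes of -1.55 and -1.60, whereas against MCA205 cells Il33 did not pass the test. The Il33 call against TC1 cells was lost without TC1 cells 1 or 3 or tumours 1 or 2.

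Of 19 complement and coagulation genes 8 were higher and 3 lower, with a median log2 change of 0.49, and 13 were higher than in MCA205 cells. C5ar1, an anaphylatoxin receptor gene, had 18.8, 14.8 and 17.7 FPKM in tumours and 0.213 to 0.322 FPKM in TC1 cells, and C3ar1 rose with a log2 change of 4.60. The thrombomodulin gene Thbd fell to 2.62 to 2.91 FPKM in tumours, against 32.5 to 45.3 FPKM in TC1 cells, a level close to the 3.12 to 3.82 FPKM of MCA205 cells. Of 12 checkpoint ligands and receptors 9 were higher and 1 lower. Vsir, Cd86 and Havcr2, which encode VISTA, a costimulatory ligand and TIM-3, rose with log2 changes of 4.83, 6.63 and 3.48. Cd80 was the lower one, at 2.15, 2.04 and 1.59 FPKM in tumours against 3.30, 4.11 and 4.41 FPKM in TC1 cells and 0.0259 to 0.224 FPKM in MCA205 cells, so it was called in opposite directions against the 2 lines. Its call against TC1 cells was lost without TC1 cells 2 or 3 or tumours 2 or 3.

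**Figure D4:**
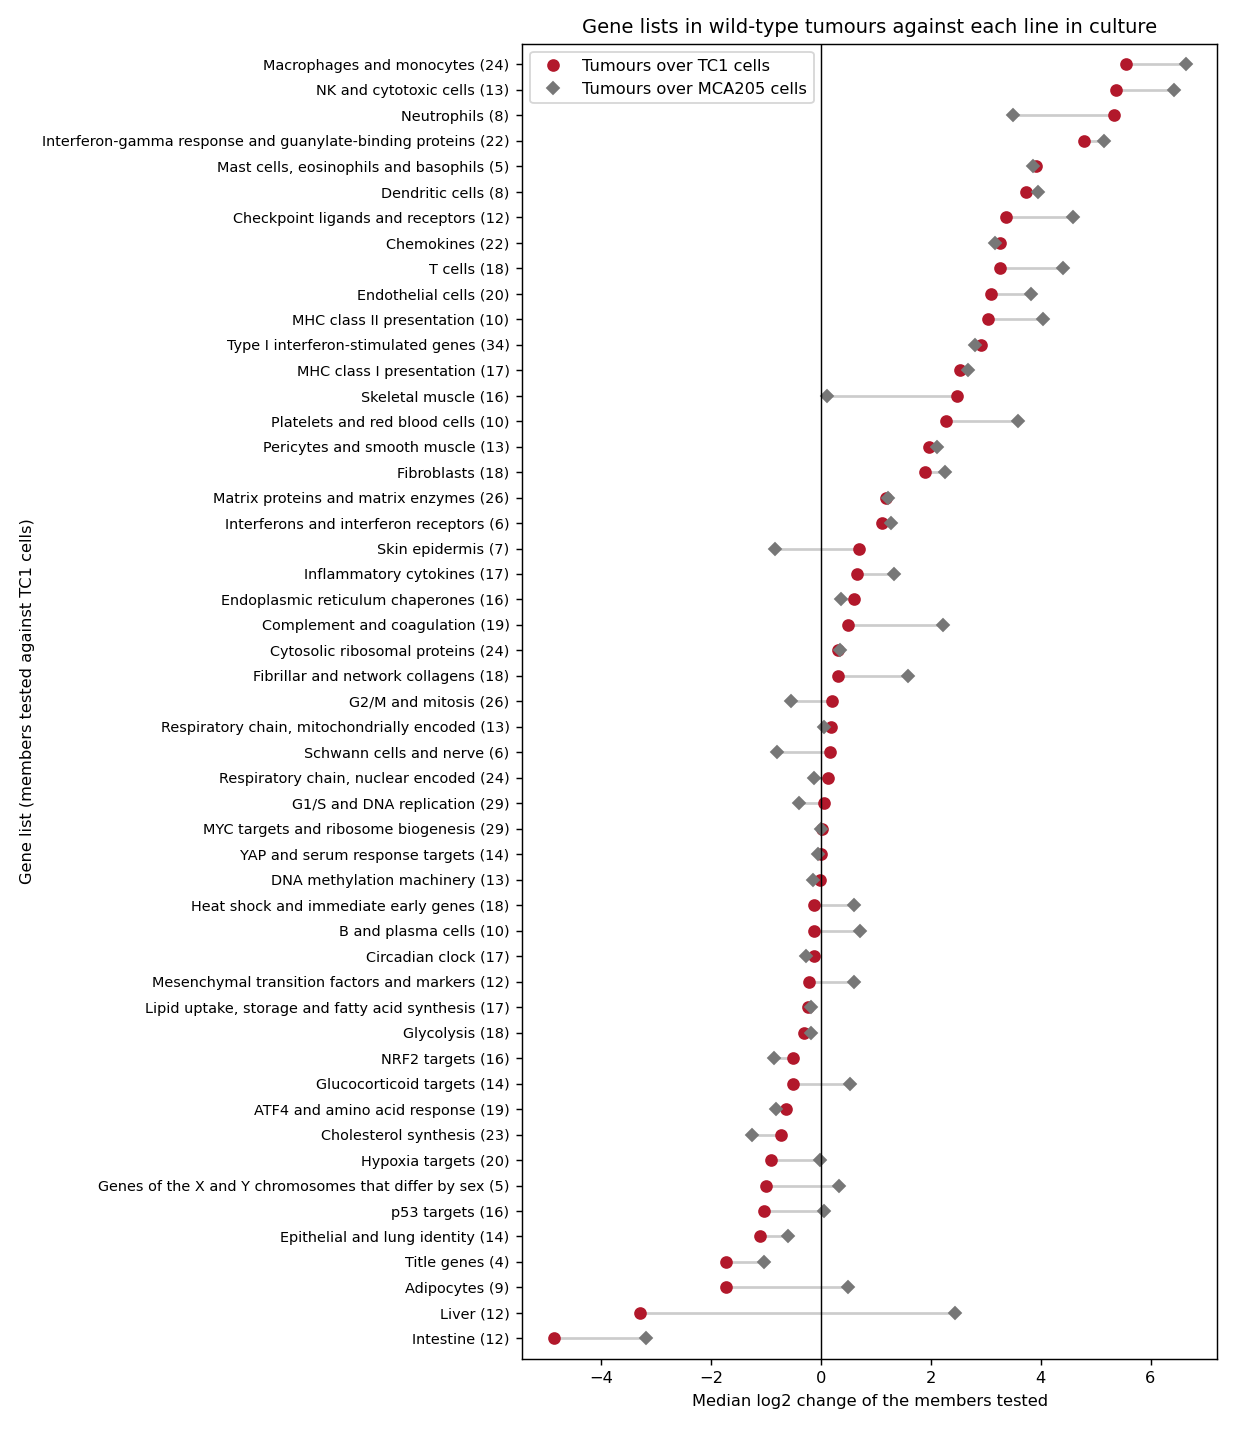
Median log2 change of the tested members of each gene list in wild-type tumours over TC1 cells (circles) and over MCA205 cells (diamonds), joined by a line, with the number of members tested against TC1 cells in parentheses. Macrophage genes have the highest median of the 51 lists over either line, at 5.55 and 6.64, B and plasma cell genes stand at -0.12 and 0.71, and hypoxia targets stand at -0.90 over TC1 cells and -0.02 over MCA205 cells.

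Genes of low oxygen were not higher in tumours as a group. Of 20 hypoxia targets 2 were higher and 10 lower than in TC1 cells, with a median log2 change of -0.90. Against MCA205 cells 2 were higher and 3 lower, with a median of -0.02. Car9, the membrane carbonic anhydrase gene that is a common marker of hypoxia, had 21.8, 17.0 and 10.6 FPKM in tumours, 89.9, 99.1 and 78.0 FPKM in TC1 cells and 9.01, 10.5 and 11.6 FPKM in MCA205 cells (log2 change over TC1 cells -2.25, SE 0.33, adjusted p = 0.00265). Its relative Car12 had 0.0549, 0.170 and 0.0996 FPKM in tumours and 4.31, 5.26 and 6.21 FPKM in TC1 cells. Adm, which encodes the vasodilator adrenomedullin, had 2.03, 1.12 and 1.24 FPKM in tumours and 25.1 to 26.6 FPKM in TC1 cells. Against MCA205 cells, which had 0.0692 to 0.573 FPKM, Adm was higher (log2 change 2.76, adjusted p = 0.0402). P4ha2, a collagen prolyl hydroxylase gene, had 38.2, 33.3 and 26.7 FPKM in tumours, 98.3, 103 and 92.9 FPKM in TC1 cells and 34.4 to 36.1 FPKM in MCA205 cells, and its difference of 0.01 from MCA205 cells on the log2 scale did not pass the test.

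The 2 higher members were Lox and Egln3. Lox, an enzyme that crosslinks collagen, had 7.69, 4.78 and 4.87 FPKM in tumours, 0.511 to 1.03 FPKM in TC1 cells and 0.0879 to 0.624 FPKM in MCA205 cells. Egln3, an oxygen-sensing prolyl hydroxylase gene, had 12.9, 13.3 and 8.59 FPKM in tumours, 4.53, 2.07 and 0.764 FPKM in TC1 cells and 33.6 to 36.3 FPKM in MCA205 cells, and its call was lost without TC1 cells 2 or tumour 2. Of 18 glycolysis genes none was called higher and 2 lower, Pfkp at a log2 change of -0.96 and Pgam1 at -0.57. The lower count was 9 without tumour 1, 4 without tumour 3 and 1 without any of the 3 cell libraries in turn. It was 9 with library size alone and 8 with DESeq2.

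The promoters of Car9 and P4ha2 are shown because these hypoxia targets were lower than in TC1 cells while holding ACGTG, the core of the hypoxia response element. The 250 bases before the RefSeq start in GRCm38.p6 are printed 5′ to 3′ on the gene's strand, with the match of either strand in capitals.
Car9 promoter, chr4:43506776-43507025, plus strand: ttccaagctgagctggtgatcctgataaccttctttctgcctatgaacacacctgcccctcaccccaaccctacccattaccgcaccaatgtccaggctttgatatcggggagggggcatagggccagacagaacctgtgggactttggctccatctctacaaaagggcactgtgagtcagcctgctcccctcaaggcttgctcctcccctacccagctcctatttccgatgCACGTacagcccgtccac
P4ha2 promoter, chr11:54100674-54100923, plus strand: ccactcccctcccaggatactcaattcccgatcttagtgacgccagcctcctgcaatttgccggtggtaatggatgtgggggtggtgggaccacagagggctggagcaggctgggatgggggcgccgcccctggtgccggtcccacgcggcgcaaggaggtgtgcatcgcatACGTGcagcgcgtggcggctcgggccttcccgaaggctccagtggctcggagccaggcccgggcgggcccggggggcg
ACGTG was found in 13 of 17 hypoxia targets with an entry (76.5%) and in 12 of 18 glycolysis genes (66.7%), against 21.8% of all genes in the table. The hypoxia list had 10 of its 20 tested members lower in tumours. Car12 and Adm were lower as well, and no match was found in their entries. Egln3, which was higher, held the letters.

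Of the genes in the series title, 3 were lower in tumours. Myc, the growth transcription factor gene, had 61.2, 61.5 and 48.6 FPKM in tumours, 243, 209 and 235 FPKM in TC1 cells and 84.0, 87.4 and 100 FPKM in MCA205 cells (log2 change over TC1 cells -1.79, SE 0.17, adjusted p = 0.00062). Against MCA205 cells Myc did not pass the test (log2 change -0.48, adjusted p = 0.0711). Cdk2, a kinase of the entry into S phase, had 19.9, 21.2 and 22.1 FPKM in tumours, 57.2, 79.9 and 78.0 FPKM in TC1 cells and 56.0 to 74.2 FPKM in MCA205 cells. Dnmt1, which copies DNA methylation after replication, had 18, 30.1 and 24.8 FPKM in tumours, 88.1 to 93.7 FPKM in TC1 cells and 104 to 122 FPKM in MCA205 cells. Cdk2 and Dnmt1 were lower than in either line, by log2 changes of -1.65 and -1.82 from TC1 cells and of -1.59 and -2.21 from MCA205 cells. Nat10, the RNA acetyltransferase gene, did not pass the test, at 14.8, 16.2 and 15.3 FPKM in tumours against 13.9, 14.1 and 15.9 FPKM in TC1 cells (log2 change 0.26, SE 0.11, adjusted p = 0.101).

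Proliferation genes were mostly not called. Of 29 genes of G1/S and DNA replication 3 were higher and 5 lower, with a median log2 change of 0.06, and the lower count was 10 without tumour 1 and 11 with library size alone. The licensing factor gene Cdt1 had 34.8, 42.0 and 36.8 FPKM in tumours and 85.2 to 89.7 FPKM in TC1 cells, and the thymidine kinase gene Tk1 had a log2 change of -0.57. E2f2, a transcription factor of the G1/S transition, was higher, with a log2 change of 0.84. Of 26 mitotic genes 9 were higher and 3 lower than in TC1 cells, and the lower ones were no longer called without any 1 of the TC1 cell libraries. The cyclin gene Ccna2 had 86.3, 101 and 82.7 FPKM in tumours, 50.3 to 56.0 FPKM in TC1 cells and 119 to 130 FPKM in MCA205 cells, and the checkpoint gene Mad2l1 had a log2 change of 1.05. Against MCA205 cells no mitotic gene was higher and 17 were lower, with a median log2 change of -0.55. The direction for this list differed between the 2 lines, a difference that was not itself tested.

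Genes of ribosome biogenesis and MYC targets were higher in 3 and lower in 7 of 29 cases, with a median of 0.02. The nucleolar genes Ncl and Npm1 were higher, with Ncl at 292, 268 and 212 FPKM in tumours against 106, 106 and 120 FPKM in TC1 cells, and the iron receptor gene Tfrc as well. The Npm1 call was lost without TC1 cells 1, 2 or 3 or tumour 2, and the Ncl call without TC1 cells 2. Polr1b, a subunit of RNA polymerase I, and the pyrimidine synthesis gene Cad were lower, at log2 changes of -0.84 and -1.18. Higher members numbered 1 without TC1 cells 2 and 5 without tumour 3. The lower count was 11 without tumour 1, 4 without TC1 cells 1, TC1 cells 2 or tumour 2, and 3 without TC1 cells 3. Among 13 genes of DNA methylation 4 were higher and 4 lower, with Uhrf2 at -0.82, Tet2 at -0.52 and Tet3 at 0.41 on the log2 scale. The Tet2 call was lost without TC1 cells 1 or 2 and the Tet3 call with library size alone, and without TC1 cells 1 the counts were 1 and 2.

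Most sterol genes were lower in tumours than in either line. Of 23 cholesterol genes 14 were lower and none higher than in TC1 cells, with a median log2 change of -0.73, and 21 were lower and 1 higher than in MCA205 cells, with a median of -1.25. With 1 library left out the count of lower genes lay between 10 and 18. Fdps, which makes the isoprenoid farnesyl diphosphate, had 112, 127 and 163 FPKM in tumours, 318, 342 and 357 FPKM in TC1 cells and 415 to 449 FPKM in MCA205 cells (log2 change over TC1 cells -1.24, SE 0.12, adjusted p = 0.00069). Lss, which closes the sterol rings, had 4.74, 7.56 and 9.86 FPKM in tumours and 22.3 to 28.4 FPKM in TC1 cells. Srebf1, a transcription factor of lipid synthesis, and Acsl1, which activates fatty acids, were lower too, with log2 changes of -1.31 and -1.74, whereas the cholesterol exporter gene Abcg1 was higher, with 2.82. The sterol regulatory letters TCACNNCAC stood in 4 of 15 cholesterol genes with an entry, against 4.37% of all genes in the table.

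Stress pathways differed from each other. Of 19 ATF4 and amino acid response genes 9 were lower and none higher, with a median of -0.63. Sesn2, a leucine-sensing protein gene, had 6.27, 7.39 and 6.92 FPKM in tumours, 23.2 to 24.3 FPKM in TC1 cells and 14.8 to 15.1 FPKM in MCA205 cells. The pseudokinase gene Trib3 had 40.3, 39.6 and 25.3 FPKM in tumours and 143 to 160 FPKM in TC1 cells, and Cth, of cysteine synthesis, had a log2 change of -1.93. Without tumour 1 the count of lower genes was 14. Chaperones of the endoplasmic reticulum were higher in 11 of 16 cases, by small steps with a median log2 change of 0.60. Manf had 163, 98.9 and 156 FPKM in tumours and 46.9 to 58.6 FPKM in TC1 cells, and the factor gene Xbp1 had a log2 change of 0.98. The count of higher chaperones was 2, 3 and 6 without TC1 cells 1, 2 and 3, 7 and 5 without tumours 1 and 3, and 4 with library size alone. In the cytosolic heat shock and immediate early list 7 of 18 were higher and 6 lower, with Dnajb1 and Hsph1 at log2 changes of 1.58 and 1.06, and Egr1 at -2.23.

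NRF2 targets, which defend against oxidants, were lower in 7 of 16 cases and higher in 3. Nqo1, a quinone reductase gene, had 3.37, 3.70 and 5.36 FPKM in tumours, 25.2 to 26.0 FPKM in TC1 cells and 69.6 to 82.4 FPKM in MCA205 cells (log2 change over TC1 cells -2.51, SE 0.16, adjusted p = 0.000195). Txnrd1, Gstm1 and Srxn1, of thioredoxin, glutathione and peroxiredoxin chemistry, had log2 changes of -1.07, -1.05 and -0.76. All 4 genes were lower than in MCA205 cells as well.

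Targets of p53 were lower in 9 of 16 cases and higher in 1, with a median log2 change of -1.03. Against MCA205 cells 3 were lower and 4 higher, with a median of 0.05. Cdkn1a, which encodes the cell cycle inhibitor p21, was among the 33 genes chosen as higher in TC1 than in MCA205 cells. It had 28.4, 20.4 and 20.8 FPKM in tumours, 101, 110 and 120 in TC1 cells and 12.7, 15.8 and 15.2 in MCA205 cells. Mdm2, the ligase gene that limits p53, had 13.5, 16.3 and 15.1 FPKM in tumours, 32.4 to 35.0 FPKM in TC1 cells and 16.3 to 18.4 FPKM in MCA205 cells. Zmat3 and Eda2r stood at 3.34 to 4.02 and 1.64 to 2.74 FPKM in tumours, against 17.6 to 20.6 and 8.85 to 10.5 FPKM in TC1 cells, with 5.34 to 5.51 and 1.95 to 2.40 FPKM in MCA205 cells. The death receptor gene Fas was the higher one, at 5.28, 4.61 and 7.02 FPKM in tumours against 0.734 to 1.88 FPKM in TC1 cells.

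**Figure D5:**
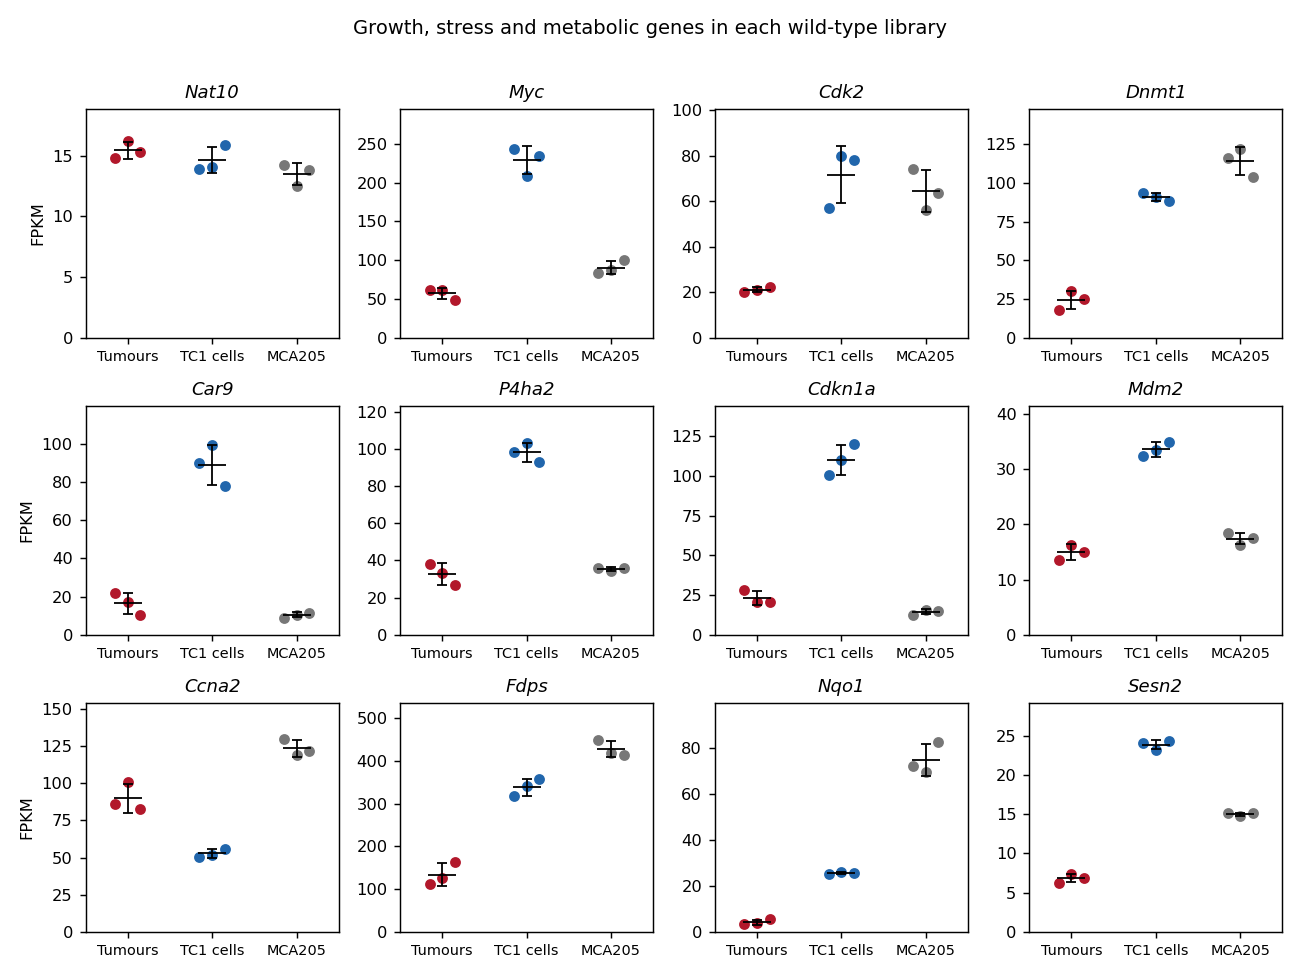
FPKM of 12 genes of growth, hypoxia, the p53 response and metabolism in each wild-type library, on linear axes from 0, with 1 point a library and the mean with its SD as a bar (n = 3). Cdk2, Dnmt1, Fdps, Nqo1 and Sesn2 are lower in tumours than in either line, whereas Car9, P4ha2 and Mdm2 are lower than in TC1 cells but did not pass the test against MCA205 cells.

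Matrix genes were higher in 15 and lower in 4 of 26 cases, and collagens higher in 8 and lower in 3 of 18. Col15a1 had 5.12, 5.31 and 7.24 FPKM in tumours and 0.159 to 0.337 FPKM in TC1 cells. Col5a3 and Col6a3 rose with log2 changes of 3.25 and 3.58, and Mmp14, a membrane-bound protease gene, had 103, 94.5 and 118 FPKM in tumours and 37.7 to 40 FPKM in TC1 cells. Genes of basement membranes were among the lower ones. Lamb1, a laminin chain gene, had 30.3, 35.8 and 40.2 FPKM in tumours, 117, 125 and 134 FPKM in TC1 cells and 25.9 to 30.2 FPKM in MCA205 cells, and Col4a1 had 27.4 to 52.8, 114 to 133 and 32.0 to 32.7 FPKM. Nid1, the linker protein gene nidogen, had a log2 change of -2.13 over TC1 cells and of 3.50 over MCA205 cells. It was among the 33 genes chosen as higher in TC1 than in MCA205 cells. Mesenchymal genes were lower in 4 of 12 cases and higher in 1, the integrin gene Itgb3 (log2 change 3.19). Against MCA205 cells 7 were higher and 2 lower, with a median of 0.60. Twist1, a transcription factor gene lower than in either line, was at 17.6, 15.3 and 15.9 FPKM in tumours against 47.0 to 49.8 FPKM in TC1 cells and 26.4 to 29.4 FPKM in MCA205 cells.

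The same contrast in sgNAT10 libraries, which share none of the libraries above but the same pair of tables, called 6388 of 19705 genes higher (32.4%) and 6042 lower (30.7%), and for 70.5% the libraries did not overlap in FPKM. Among 18544 genes tested in both, 3217 were higher in both pairs, which is 71.4% of the wild-type calls and 53.4% of the sgNAT10 calls, and 2566 were lower in both, 66.9% and 44.1%. Another 353 and 307 genes called higher and lower in wild type were called in the opposite direction. All 24 macrophage genes, 18 of 18 T cell genes, 19 of 20 endothelial genes and 24 of 34 type I interferon-stimulated genes were higher in sgNAT10 tumours than in sgNAT10 cells. Isg15 was among those not called, with 367, 422 and 410 FPKM in sgNAT10 tumours and 83.3, 323 and 341 FPKM in sgNAT10 TC1 cells (log2 change 0.68, adjusted p = 0.218). Replication and mitotic genes stood apart from the wild-type pair, with 27 of 29 and 23 of 26 lower. Hypoxia targets had 3 higher and 11 lower, and ATF4 genes 13 higher and 4 lower. Whether any of these counts differs between the genotypes was not tested.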

How the data were processed

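RNA sequencing of 6 groups of 3 libraries was deposited in 3 tables, of which the wild-type tumour and wild-type TC1 cell columns make the comparison. The authors' deposited tables give estimated counts, which are not all whole, and FPKM per transcript, per the file headers. Which program made them is not given in the sources used. Bowtie2, featureCounts, Trim Galore and FastQC, with the mm10 build, are listed in the submitters' processing notes. Estimated counts were summed per gene, joined with a missing gene as 0, rounded and tested with edgeR 4.0.16 (TMM, quasi-likelihood, low-count filter of the tool) in R 4.3.3, with Benjamini-Hochberg adjustment over all genes. Deposited FPKM were summed per gene and used for levels.

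A gene was called at an adjusted p under 0.05. SE is the log2 change divided by the square root of F. Genes were named by rule. The 10 largest rises and falls were taken among called genes with a higher mean of at least 20 CPM and groups that did not overlap. Unnamed gene models and pseudogenes were left out. Up to 4 called members of each list were also named, with up to 3 that went against most of a list. Dlk1, Grb10, Hoxc10, Hoxa11, Pitx1, Car9, B2m, Ptprc, Alb, Cd8a, Adgre1, Isg15, Ifit3, Itga2b and Slc4a1 were added after their values were seen. The members and the 51 lists were chosen with earlier results of these data known. DESeq2 1.42.0, limma 3.58.1 on FPKM, other scalings and filters, a replicate block and leaving out each library were tried. Counts were simulated for the wild-type comparison (18699 genes), with 200 genes changed, each of a mean count of at least 50. On these the test recovered 25% of 2-fold and 67% of 4-fold changes, and 5.15% of its calls were unchanged genes. Far more genes were called in the data than were changed in the simulation, so these rates need not hold for the data. Promoter sequences are RefSeq's, and no column lacked a sample. Results for a few genes are not reported here.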

Additional observations from a re-analysis of the deposited data

Results flagged for a closer look

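The genes below were called in opposite directions in the wild-type and the sgNAT10 pair, each comparing tumours with cultured TC1 cells. The difference between the pairs was not tested. Adm had a log2 change of -3.96 in wild type and 0.91 in sgNAT10, and Car9 had -2.25 and 2.25. Egln3 had 2.39 in wild type and -1.49 in sgNAT10. Trib3 had -1.95 and 1.67, and Ddit3 -0.74 and 1.90. Thbs2, a matrix protein gene, had -2.62 in wild type and 4.83 in sgNAT10, Snai2 had -1.11 and 1.29, and the mitotic motor gene Kif11 had 0.82 and -0.90.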

How the results depend on the processing

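With the replicate number as a block, 2659 genes were lower, against 3990 without it. The numbers share no stated source, and deviations of same-numbered libraries had correlations of -0.095, 0.073 and -0.317, so they do not pair the libraries. With limma-trend on log2(FPKM + 1) the genes changed at least 2-fold numbered 1340 higher and 1445 lower, and with no filter 1357 and 1490. With log2(FPKM + 0.1) 1584 were higher. A larger pseudocount shrinks folds of low genes by construction. With 1 library left out, higher genes ranged between 3208 and 4549, lower genes between 2764 and 4728, and genes at least 2-fold higher or lower between 2211 and 2483 and between 1759 and 2526. In the sgNAT10 pair they ranged between 5627 and 6502 and between 5292 and 6134. No named gene reversed its direction under these alternatives. The balance of all calls did: higher against lower genes numbered 3493 and 5008 with library size alone, 4246 and 4317 with RLE factors, and 3118 and 4056 with limma-trend on log2(FPKM + 1). Without tumour 3, 7 G1/S genes were higher and 5 lower. With 3 libraries a group, small changes of low genes are missed.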
